A study of Mus musculus with 138 samples.

Results

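The lambdoid suture is the seam between the parietal bones and the interparietal bone at the back of the skull roof. Of 138 libraries in the series, 15 were taken from it by laser capture at E16.5 (E, embryonic day), and these were selected by their labels alone. They were 5 of suture mesenchyme (SM), the tissue between the bones, 5 of the osteogenic front (OF) at the edge of the parietal bone, and 5 of the OF at the edge of the interparietal bone. All 15 came from wild-type C57BL/6J embryos that received no treatment. Each replicate number names 1 embryo that gave 1 library of each region, so that the 5 embryos are the units of replication. Embryos 1 to 4 share a litter label and embryo 5 carries another, so that the second litter rests on 1 animal. The study set SM against OF in 4 sutures (coronal, frontal, lambdoid and sagittal) at E16.5 and E18.5, and used the contrast to set the mesenchyme of the coronal suture against that of the others. RNA of the captured tissue was amplified before library construction, and the counts carry no molecular identifiers, so that they are counts of amplified cDNA. In such bulk samples, fewer cells of a type and less RNA per cell cannot be told apart.

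Flat bones of the skull form by intramembranous ossification, in which mesenchymal cells become osteoblasts without a cartilage stage. At an OF, precursors that express *Runx2* and then *Sp7*, the master transcription factors of the osteoblast lineage, deposit collagen I and the proteins that mineralize it, whereas SM stays unossified and keeps the bones apart. Indian hedgehog, a ligand made by differentiating osteoblasts, signals through the receptor gene *Ptch1*, and with FGF, BMP and Wnt signals it sets the balance between growth and patency of a suture.

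4 of the genes on which the comparisons turn lie in a row on chromosome 5 and encode small integrin-binding matrix glycoproteins of bone. They are *Dmp1* (chr5:104202613-104214102), *Ibsp* (chr5:104299171-104311469), *Mepe* (chr5:104325329-104338611) and *Spp1* (chr5:104435118-104441050), all on the + strand of mm10. Their promoters are printed from RefSeq on GRCm38.p6, the assembly that mm10 names, each from 250 bases before to 50 bases after an annotated start. Capitals mark TGTGGT, the core of the motif bound by Runx factors, or ACCACA, the same letters read on the other strand.
Dmp1, chr5:104202367-104202666, + strand: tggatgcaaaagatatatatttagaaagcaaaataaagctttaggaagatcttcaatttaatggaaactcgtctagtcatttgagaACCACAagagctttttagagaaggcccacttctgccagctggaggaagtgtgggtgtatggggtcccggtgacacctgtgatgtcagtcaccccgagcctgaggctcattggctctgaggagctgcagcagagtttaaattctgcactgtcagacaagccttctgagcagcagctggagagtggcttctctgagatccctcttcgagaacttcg
Ibsp, chr5:104299037-104299336, + strand: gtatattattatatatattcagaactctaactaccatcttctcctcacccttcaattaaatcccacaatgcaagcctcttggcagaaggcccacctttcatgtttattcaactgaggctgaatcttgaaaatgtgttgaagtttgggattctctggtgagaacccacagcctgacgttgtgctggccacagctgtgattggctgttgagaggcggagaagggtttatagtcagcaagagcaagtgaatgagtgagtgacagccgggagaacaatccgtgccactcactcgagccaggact
Mepe, chr5:104325079-104325378, + strand: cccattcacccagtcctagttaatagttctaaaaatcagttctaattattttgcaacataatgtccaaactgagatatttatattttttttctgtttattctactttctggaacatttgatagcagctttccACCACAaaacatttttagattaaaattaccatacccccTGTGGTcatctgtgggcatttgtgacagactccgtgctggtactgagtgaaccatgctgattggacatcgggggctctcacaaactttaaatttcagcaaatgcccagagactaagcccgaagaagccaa
Spp1, chr5:104434861-104435160, + strand: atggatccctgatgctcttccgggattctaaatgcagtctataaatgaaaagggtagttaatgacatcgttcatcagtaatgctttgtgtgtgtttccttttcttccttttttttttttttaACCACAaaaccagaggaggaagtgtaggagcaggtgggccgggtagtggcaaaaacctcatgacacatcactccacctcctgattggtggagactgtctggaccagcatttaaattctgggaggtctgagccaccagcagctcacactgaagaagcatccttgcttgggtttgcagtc
A further start of *Dmp1* and a further start of *Spp1* have windows without these letters. Of 26 bone matrix and mineralization genes listed, 20 were matched to RefSeq, and 7 of their 28 windows held the core (25.0%). It stood in 1 of 18 windows (5.56%) of the 14 matched of 20 genes of small leucine-rich and elastic fibre matrix, and in 5506 of all 32851 windows (16.8%). These counts describe letters in a window and were not tested.

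The 15 libraries held 8098490 to 11294521 counts on genes (median 9588683), with 21967 to 25302 genes detected. Values are CPM, that is counts scaled to a common library size, after TMM scaling, which sets most genes at equal level across libraries. They are listed in the order of embryos 1 to 5. Fold changes are log2 of SM over OF ± SE, n = 5 embryos, with the adjusted p of edgeR's quasi-likelihood test after Benjamini-Hochberg adjustment over all genes. A gene was called at an adjusted p under 0.05. The SE was derived from the F statistic of that test. Its spread was estimated over the 100 libraries of the model, so that the SE is not the spread of the 5 embryos alone. Floors drawn from counts of 0 are set against the mean of the other group. They cover counting error in the group at 0 only, not the spread of the other group. On the first principal component, which took 66.2% of the variance, SM lay at 38.3 to 51.8, the interparietal OF at -15.3 to -6.60 and the parietal OF at -53.8 to -16.7, so that the interparietal OF lay between the others. The parietal OF of embryo 2 stood apart, with the fewest genes detected, 47.2% of its counts in its 100 most abundant genes and the highest sums of bone matrix and red cell genes. The SM of embryo 2 was the highest of the SM libraries for some single bone genes such as *Ibsp* and *Col22a1*, and the SM of embryo 5 was the highest for the sum of skeletal muscle genes. Counts without the parietal OF of embryo 2 and without each embryo are given beside the results they touch.

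SM differed from the parietal OF in 4755 of 19768 genes tested and from the interparietal OF in 2369. Against the parietal OF, 1993 genes (10.1% of those tested) were higher in SM and 2762 (14%) were higher in the OF. Against the interparietal OF, 828 genes (4.19%) were higher in SM and 1541 (7.80%) were higher in the OF. Both comparisons use the same 5 SM libraries and are not independent of each other. Within the first litter alone, that is without embryo 5, the counts were 1838 and 2276 against the parietal OF and 634 and 1005 against the interparietal OF. Without the parietal OF of embryo 2, a fit added after the data were seen, the counts against the parietal OF were 1506 and 2298. The fit of these 15 libraries alone, which estimates the spread from them, called more genes: 4093 and 4106 against the parietal OF, 2528 and 2885 against the interparietal OF.

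The split between the directions moved with the scaling. With median-ratio size factors in place of TMM, fold changes of SM against the parietal OF shifted by a median of 0.135 (log2) toward SM and those against the interparietal OF by 0.108. The counts became 2497 higher in SM with 2070 higher in the parietal OF, and 1104 with 1129. Scaling by total counts alone gave 3051 with 1306 and 976 with 944, on median shifts of 0.285 and 0.112. Under this last scaling the difference between the OFs shifted by a median of -0.174 and that between the lambdoid and the other sutures by 0.12. Fold changes below are relative to the TMM scale, on which the median gene stood at 0.0114 against the parietal OF and at -0.00128 against the interparietal OF.

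Of the genes higher in SM, 765 (3.87% of those tested) passed in both comparisons, which is 38.4% of the parietal and 92.4% of the interparietal list. Of the genes higher in the OFs, 1493 (7.55%) passed in both, which is 54.1% and 96.9% of the lists. In the fits without 1 embryo these counts ran from 575 to 669 and from 906 to 1148, the latter at 906, 940 and 978 without embryo 1, 3 or 5. None was called in opposite directions. The genes called in 1 comparison numbered 1228 and 1269 for the parietal OF, and 63 and 48 for the interparietal OF. A call in 1 comparison does not show that the OFs differ. The parietal OF was therefore tested directly against the interparietal OF, which gave 109 genes (0.551%) higher in the parietal and 97 (0.491%) higher in the interparietal OF. These counts depended on single embryos. They were 40 and 49 without embryo 1, 18 and 14 without embryo 2, 20 and 23 without embryo 3, 58 and 39 without embryo 4 and 121 and 103 without embryo 5, and 21 and 16 without the parietal OF of embryo 2 alone. Under scaling by total counts they were 30 and 163, with no replicate block 49 and 51, and with limma-voom 41 and 84. Of the genes called in both comparisons, 60 of the 765 higher in SM and 62 of the 1493 higher in both OFs were among these. Of the genes called against the parietal OF alone, 31 of 1228 and 39 of 1269 were among them, and of those called against the interparietal OF alone, 7 of 63 and 5 of 48.

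**Figure D1:**
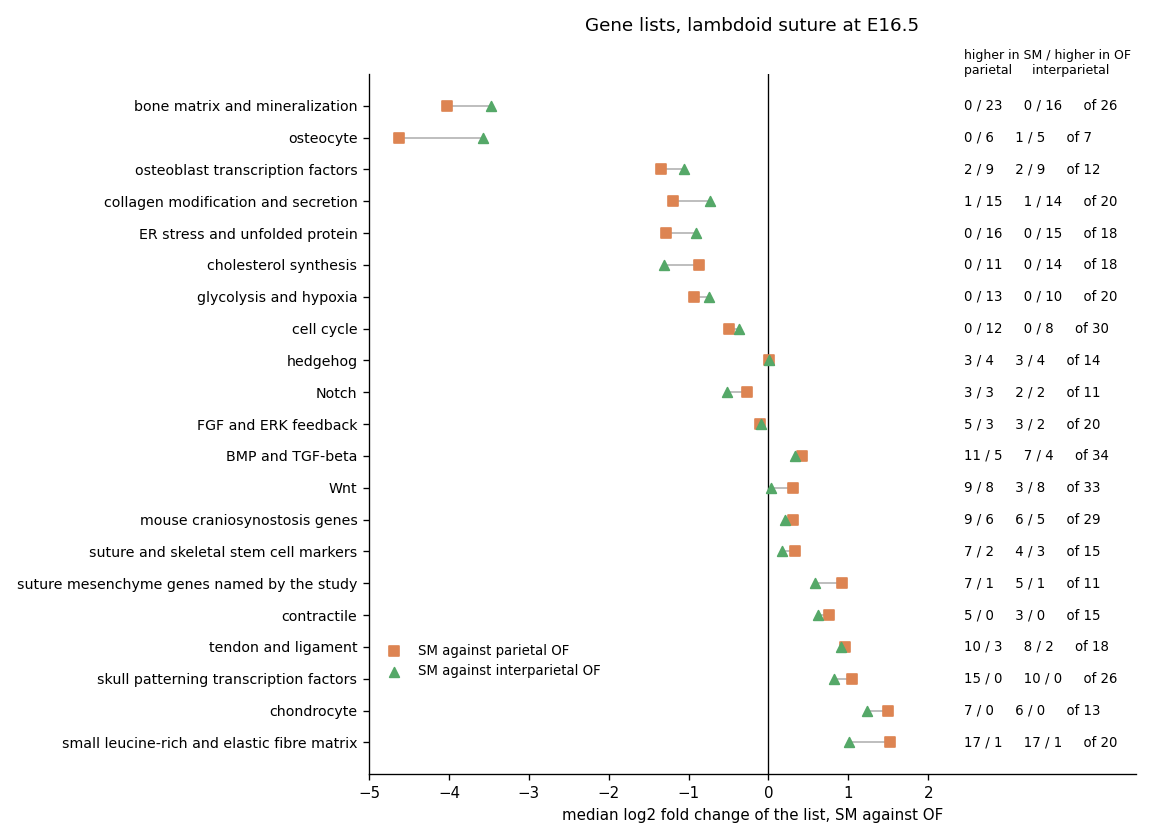
Median log2 fold change of each gene list, SM against the parietal OF (squares) and SM against the interparietal OF (triangles), with the numbers of genes called higher in SM and higher in the OF on the right. Bone, secretory and metabolic lists lie left of 0, and matrix, tendon, cartilage and patterning lists lie right of 0.

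Genes of bone matrix and mineralization were far higher in both OFs. The members of this and the other gene lists were chosen with earlier results of these data known. Of 26 genes, 23 were higher in the parietal OF and 16 in the interparietal OF, and none was higher in SM. The list median was -4.03 and -3.47 (log2), or -3.37 and -2.67 with genes that had no read in SM set to the bound that 3 reads over the 5 SM libraries allow, against medians near 0 over all genes. *Ibsp* read 36.4, 189, 37.9, 5.03 and 12.9 CPM in SM. Its levels were 7659.6, 12568, 11809, 5712 and 3899.7 CPM in the parietal OF and 4499, 4753, 4375, 3767 and 4352 CPM in the interparietal OF. *Ibsp* encodes bone sialoprotein, which starts mineral deposition, and its SM libraries spread widely with the highest in embryo 2, yet every OF library lay above every SM library (log2 fold change -7.80 ± 0.95, adjusted p = 4.30e-09 against the parietal OF and -7.09 ± 0.93, adjusted p = 7.89e-08 against the interparietal OF).

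*Dmp1* read 0, 0, 0, 0 and 0 CPM in SM. Its levels were 25.0, 44.2, 32.1, 5.0 and 3.33 CPM in the parietal OF and 2.78, 5.87, 5.69, 4.49 and 2.0 CPM in the interparietal OF. *Dmp1*, a phosphoprotein of late osteoblasts and osteocytes, thus had no read in any SM library. Against 3 reads over the group, its mean level was at least 393-fold higher in the parietal OF and at least 74.6-fold higher in the interparietal OF (adjusted p = 1.17e-07 and 1.16e-04). The parietal OFs of embryos 4 and 5, at 5.0 and 3.33 CPM, lay below their group mean of 21.9 CPM. *Alpl* read 34.7, 68.5, 65.4, 28.5 and 20.2 CPM in SM. Its levels were 569, 766, 674, 492 and 389.6 CPM in the parietal OF and 401, 403, 431, 387 and 421 CPM in the interparietal OF. *Alpl*, the phosphatase that frees phosphate for mineral, did not overlap between SM and either OF (log2 fold change -3.81 ± 0.30, adjusted p = 3.27e-15 against the parietal OF and -3.38 ± 0.29, adjusted p = 6.38e-13 against the interparietal OF). *Mepe*, a phosphoglycoprotein that regulates mineral, stood at 0 in 4 of 5 SM libraries and at 0.0860 CPM in the other, with 0.714 to 9.91 CPM in the parietal and 2.17 to 3.52 CPM in the interparietal OF.

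By the rule for genes called in both comparisons and changed the same way in every embryo, the 12 widest toward the OFs, ranked by the lesser of their 2 fold changes, were *Dmp1*, *Ibsp*, *Slc36a2*, *Chrnb4*, *Chst13*, *Col22a1*, *Entpd3*, *Rhbdl2*, *Lipi*, *Phospho1*, *Phex* and *Ifitm5*. *Dmp1* had no read in SM, so that its first place rests on a group at 0, where its lesser fold change is bounded at -6.22 (log2). *Phospho1* releases phosphate inside matrix vesicles, *Phex* is a peptidase of osteoblasts and osteocytes whose loss causes phosphate wasting, and *Ifitm5* is a membrane protein of osteoblasts. *Phex* read 0.946, 1.84, 0.363, 0.652 and 0.50 CPM in SM, 94.5, 196.2, 168, 44.7 and 29.0 CPM in the parietal OF and 34, 35.5, 28.5, 25.9 and 16.7 CPM in the interparietal OF. All 10 OF libraries exceeded all SM libraries, and the parietal OFs of embryos 4 and 5 were the lowest of their group (log2 fold change -6.81 ± 0.71, adjusted p = 5.54e-11 against the parietal OF and -5.17 ± 0.69, adjusted p = 1.06e-07 against the interparietal OF). *Slc36a2*, an amino acid transporter, was at 0 to 0.580 CPM in SM, 12.9 to 69.2 CPM in the parietal OF and 15.8 to 30.3 CPM in the interparietal OF. *Col22a1*, a minor collagen, was at 0.50 to 10.8 CPM in SM, where the highest value was that of embryo 2, against 77.9 to 279.9 and 82.6 to 121 CPM in the OFs. In the fits that left out 1 embryo at a time, each of these 12 kept its call in both comparisons.

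Collagen I itself was abundant in SM as well. *Col1a1* read 10049 to 13068 CPM in SM, 13088 to 36287 in the parietal OF and 12466 to 14848 in the interparietal OF. It was higher in the parietal OF (log2 fold change -0.85 ± 0.15, adjusted p = 1.52e-05), while the difference from the interparietal OF did not pass (log2 fold change -0.21 ± 0.15, adjusted p = 0.455). Per kilobase of exon, mean *Col1a1* was 1783 CPM in SM and mean *Ibsp* 27.2, whereas in the parietal OF they were 3362 and 4028. In the interparietal OF the same levels were 2079 and 2103, closer to each other than the libraries' spread. *Bglap* and *Bglap2*, near-identical copies of the osteocalcin gene whose reads the counting could split, had no read in SM. Against 3 reads over that group, their mean levels were at least 7.96-fold and 6.15-fold higher in the parietal OF (adjusted p = 0.0148 and 0.0151). Neither passed against the interparietal OF. The calls were lost without embryo 1 or 2 for *Bglap* and without embryo 2 or 3 for *Bglap2*.

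**Figure D2:**
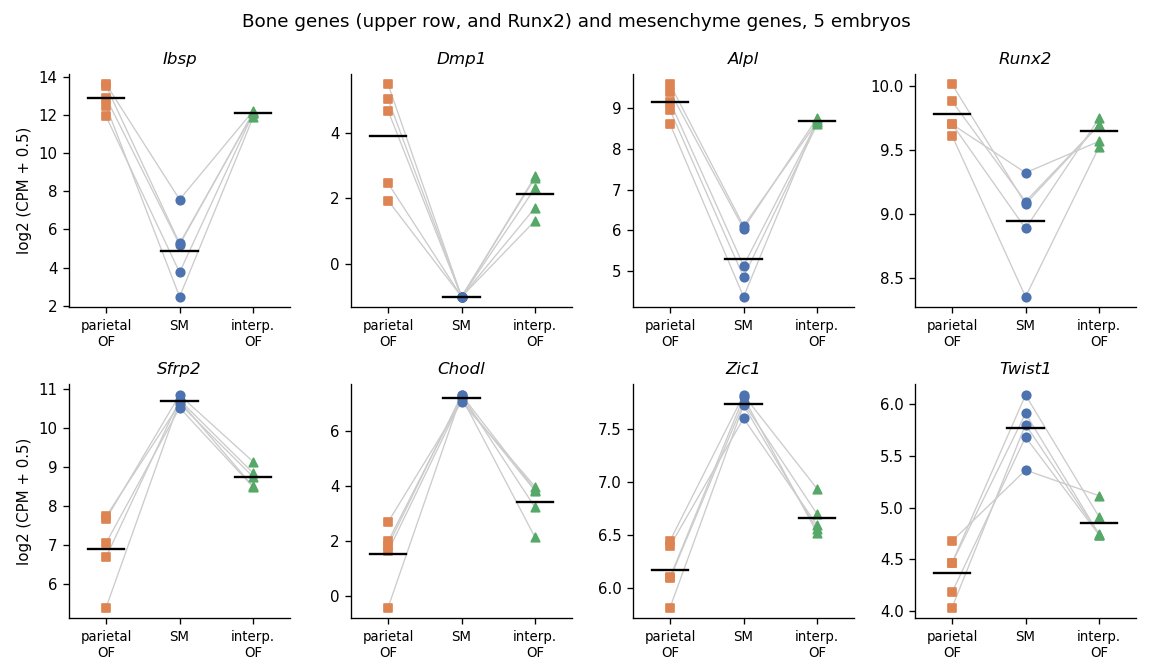
log2 of CPM plus 0.5 of 8 genes in the parietal OF, SM and interparietal OF, with a line joining the libraries of each of 5 embryos and a bar at the group mean. The upper row (*Ibsp*, *Dmp1*, *Alpl*, *Runx2*) is lower in SM in each embryo, and the lower row (*Sfrp2*, *Chodl*, *Zic1*, *Twist1*) is higher in SM in each embryo.

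The transcription factors of the osteoblast lineage had smaller median differences than the matrix genes they precede. Of 12 such genes, 9 were higher in each OF and 2 higher in SM in both comparisons (medians -1.35 and -1.06). *Runx2* read 473, 639.6, 547, 540.2 and 327 CPM in SM. Its levels were 833, 832, 942, 1033 and 782 CPM in the parietal OF and 858, 758, 829.8, 828 and 735 CPM in the interparietal OF. *Runx2* was thus well expressed in SM, lowest in embryo 5, and its SM and OF libraries did not overlap (log2 fold change -0.83 ± 0.13, adjusted p = 3.91e-07 against the parietal OF and -0.69 ± 0.13, adjusted p = 3.28e-05 against the interparietal OF). *Sp7* read 60.4, 118, 94.6, 49.9 and 35.5 CPM in SM. Its levels were 576, 837, 643, 601 and 438 CPM in the parietal OF and 434, 449, 462, 394 and 406 CPM in the interparietal OF. *Sp7*, which acts after *Runx2*, showed a wider gap (log2 fold change -3.18 ± 0.27, adjusted p = 4.08e-14 against the parietal OF and -2.70 ± 0.27, adjusted p = 2.16e-11 against the interparietal OF), as did *Dlx3* (-5.14 ± 0.59 and -4.44 ± 0.59). The 2 factors higher in SM were *Msx2*, a homeobox gene of the skull, and *Zfp521*, a zinc finger protein that binds Runx2. *Msx2* read 107 to 161 CPM in SM against 24.1 to 50.1 and 38.4 to 62.3 CPM in the OFs (log2 fold change 1.82 ± 0.20, adjusted p = 2.29e-11 against the parietal OF and 1.22 ± 0.19, adjusted p = 1.78e-06 against the interparietal OF).

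Osteocyte genes were also higher in the OFs. Of 9 listed, *Sost* and *Fgf23* were too low to be tested, and of the other 7, 6 were higher in the parietal OF and 5 in the interparietal OF (medians -4.62 and -3.58). *Pdpn*, a membrane glycoprotein of early osteocytes and of other cells, went the other way and was higher in SM than in the interparietal OF (log2 fold change 1.07 ± 0.28, adjusted p = 0.00532), a call not past the threshold without embryo 5 (adjusted p = 0.12), and it did not pass against the parietal OF (log2 fold change 0.54 ± 0.28, adjusted p = 0.159). *Dkk1* read 3.61, 9.18, 5.90, 2.70 and 0.400 CPM in SM. Its levels were 86.5, 156, 143, 63.7 and 50.5 CPM in the parietal OF and 45.4, 53.1, 41.1, 36.4 and 38.4 CPM in the interparietal OF. *Dkk1*, a secreted Wnt inhibitor, was higher in every OF library than in any SM library (log2 fold change -4.62 ± 0.44, adjusted p = 1.66e-12 against the parietal OF and -3.58 ± 0.43, adjusted p = 4.89e-09 against the interparietal OF).

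Genes of the secretory route were higher in the OFs as well. Of 20 genes of collagen modification and secretion, 15 were higher in the parietal and 14 in the interparietal OF (medians -1.19 and -0.74), and *P3h3*, a prolyl hydroxylase family member, was the 1 higher in SM in both, although against the interparietal OF it was not past the threshold without embryo 1 or 2 (adjusted p = 0.1 and 0.052). In embryo 5 its log2 ratio against that OF was -0.04, against 0.464 to 0.98 in embryos 1 to 4. *Serpinh1*, the collagen chaperone Hsp47, was at 642 to 789 CPM in SM, 1485 to 2905 CPM in the parietal OF and 1225 to 1425 CPM in the interparietal OF (log2 fold change -1.43 ± 0.16, adjusted p = 1.68e-10 against the parietal OF and -0.90 ± 0.16, adjusted p = 2.26e-05 against the interparietal OF). Of 18 genes of the unfolded protein response and folding in the endoplasmic reticulum, 16 and 15 were higher in the OFs and none in SM (medians -1.28 and -0.90). *Hspa5*, the chaperone BiP, was at 253 to 351, 753 to 947 and 595 to 669.9 CPM (log2 fold change -1.6 ± 0.15, adjusted p = 1.04e-13 against the parietal OF and -1.2 ± 0.15, adjusted p = 2.41e-09 against the interparietal OF), and *Xbp1*, a transcription factor of the secretory pathway, at 80.2 to 105, 209 to 373 and 178 to 251 CPM. *Ddit3*, which marks severe stress, did not pass in either comparison (-0.16 ± 0.34 and -0.38 ± 0.34).

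Genes of metabolism and proliferation that passed were higher in the OFs, where 14% (parietal) and 7.80% (interparietal) of all genes tested were higher. Of 18 genes of cholesterol synthesis, 11 were higher in the parietal and 14 in the interparietal OF (medians -0.86 and -1.31), and none was higher in SM. *Hmgcs1*, an early enzyme of that route, read 28.4 to 42.7 CPM in SM, 52.9 to 65.6 in the parietal and 73.4 to 111 in the interparietal OF, and the 3 ranges did not overlap. None of the 18 was called between the OFs. Of 20 glycolysis and hypoxia genes, 13 and 10 were higher in the OFs (medians -0.94 and -0.74), among them *Ldha* (-1.53 ± 0.19 and -1.16 ± 0.19), which makes lactate, and *Pgk1* (-1.66 ± 0.21 and -1.32 ± 0.21). Of 30 cell cycle genes, 12 were higher in the parietal and 8 in the interparietal OF, none was higher in SM and the rest did not pass (medians -0.49 and -0.37). *Mki67*, a marker of cycling cells, read 410 to 630.4 CPM in SM, 660.3 to 1088 in the parietal OF and 644 to 902 in the interparietal OF (log2 fold change -0.50 ± 0.16, adjusted p = 0.0169 against the parietal OF and -0.35 ± 0.16, adjusted p = 0.174 against the interparietal OF). Against the parietal OF its call was not past the threshold without embryo 1, 4 or 5 (adjusted p = 0.094, 0.16 and 0.2).

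Among genes higher in SM in both comparisons and in every embryo, the 12 widest by the same ranking were *Myh8*, *Chodl*, *Tac1*, *Cpm*, *Lrp1b*, *Gria1*, *Csmd3*, *Cntn3*, *Cdh12*, *Clstn2*, *Ndst3* and *Inpp4b*. They include genes best known from neurons such as *Tac1*, the precursor of substance P, *Gria1*, a glutamate receptor subunit, and the adhesion genes *Cntn3* and *Cdh12*. *Chodl* read 151, 159.8, 143, 159.7 and 134 CPM in SM. Its levels were 3.44, 0.239, 2.56, 3.04 and 5.93 CPM in the parietal OF and 3.86, 8.81, 13.7, 14.1 and 15.3 CPM in the interparietal OF. *Chodl*, a membrane lectin, was within a narrow range in SM and did not overlap with either OF (log2 fold change 5.70 ± 0.56, adjusted p = 9.65e-12 against the parietal OF and 3.85 ± 0.49, adjusted p = 4.32e-08 against the interparietal OF). *Tac1* read 70.6, 53.0, 54.0, 67.2 and 54.5 CPM in SM. Its levels were 2.48, 0.478, 0.308, 4.11 and 2.34 CPM in the parietal OF and 4.31, 3.88, 6.16, 13.1 and 5.74 CPM in the interparietal OF. *Tac1* showed the same order of the 3 regions, with the interparietal OF between the others (log2 fold change 5.12 ± 0.60, adjusted p = 8.75e-10 against the parietal OF and 3.31 ± 0.53, adjusted p = 4.03e-06 against the interparietal OF). Of 10 neural and glial markers tested, none was higher in SM and 1, *Tubb3*, was higher in both OFs, while *Sox2* was too low to be tested. That count lay near the shares of 14% and 7.80% over all genes. *Cdh12* was not past the threshold without embryo 2 (adjusted p = 0.094) against the interparietal OF. The other 11 kept their calls in both comparisons with any 1 embryo left out.

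*Myh8*, the perinatal myosin heavy chain, led that order and is a gene of skeletal muscle. *Myh8* read 22.3, 20.7, 22.2, 28.3 and 56.8 CPM in SM. Its levels were 0, 0, 0.103, 0.804 and 0.539 CPM in the parietal OF and 0.449, 0.210, 1.52, 8.72 and 5.56 CPM in the interparietal OF. The SM of embryo 5 was the highest (log2 fold change 7.30 ± 0.74, adjusted p = 1.13e-11 against the parietal OF and 4.02 ± 0.60, adjusted p = 8.15e-07 against the interparietal OF). The summed level of 8 tested skeletal muscle markers was 55 to 101 CPM in the SM of embryos 1 to 4 and 454 CPM in that of embryo 5, against 5.37 to 16.3 CPM in the parietal and 10.2 to 124 CPM in the interparietal OF. 6 of the 8 were higher in SM than in the parietal OF and 1 than in the interparietal OF, and *Myod1*, *Myog*, *Tnni2*, *Ckm* and *Pax7* were too low to be tested. Their part in the *Myh8* result was not tested.

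Among the 32 gene lists, chosen with earlier results of these data known, that of small leucine-rich and elastic fibre matrix was most often higher in SM. Of 20 genes, 17 were higher in SM in each comparison and 16 in both (medians 1.52 and 1.01). Their sum was highest in the SM of embryo 5, as was the sum of 9 genes of hypodermis and dermis given below, and the part of such tissue in this result was not tested. *Fbn2*, a fibrillin of embryonic microfibrils, read 1272, 987, 1103, 1455 and 1158 CPM in SM, 236, 52.9, 166, 258 and 388 in the parietal OF and 353, 402, 389, 574 and 529 in the interparietal OF. SM did not overlap with either OF, and the parietal OF of embryo 2 was far below the rest (log2 fold change 2.60 ± 0.29, adjusted p = 4.05e-10 against the parietal OF and 1.42 ± 0.28, adjusted p = 1.44e-04 against the interparietal OF). *Dcn* (decorin) was at 424 to 969.8 CPM in SM, the highest in embryo 5, against 110.1 to 199.7 and 108 to 219.9 CPM in the OFs, and *Bgn* (biglycan) at 1146 to 1732 against 494 to 631 and 586 to 788 CPM. *Eln* (elastin) was 1.94 ± 0.20 and 0.99 ± 0.19 on the log2 scale. The exception was *Omd*, osteomodulin, a small leucine-rich protein of osteoblasts that is also on the bone matrix list, with 2.0 to 4.73 CPM in SM and 16.6 to 22.1 and 22.7 to 29.5 CPM in the OFs (log2 fold change -2.5 ± 0.32, adjusted p = 4.35e-09 against the parietal OF and -2.78 ± 0.32, adjusted p = 7.68e-10 against the interparietal OF).

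Of 26 transcription factors that pattern the skull, 15 were higher in SM than in the parietal OF and 10 higher than in the interparietal OF, with none higher in an OF (medians 1.05 and 0.82). *Zic1* read 222, 210.3, 214, 225 and 193 CPM in SM. Its levels were 68.1, 55.8, 67.6, 86.6 and 83.7 CPM in the parietal OF and 91.3, 93.3, 103, 122 and 95.9 CPM in the interparietal OF. *Zic1*, a zinc finger gene of the dorsal head, did not overlap between SM and either OF (log2 fold change 1.57 ± 0.16, adjusted p = 1.05e-11 against the parietal OF and 1.08 ± 0.16, adjusted p = 5.86e-07 against the interparietal OF). *Twist1* read 59.6, 55.3, 50.8, 67.5 and 40.6 CPM in SM. Its levels were 21.6, 15.9, 17.6, 21.6 and 25.1 CPM in the parietal OF and 26.3, 26.2, 26.2, 29.6 and 34.2 CPM in the interparietal OF. *Twist1*, whose loss of 1 copy fuses the coronal suture, was higher in every SM library than in any OF library (log2 fold change 1.44 ± 0.18, adjusted p = 3.56e-09 against the parietal OF and 0.95 ± 0.18, adjusted p = 6.82e-05 against the interparietal OF). *Six2* (2.12 ± 0.25 and 1.88 ± 0.25), *Eya1* (1.69 ± 0.30 and 1.81 ± 0.30) and *Prrx1* (0.96 ± 0.10 and 0.82 ± 0.10) were higher in SM in both comparisons. *Alx4*, a factor of calvarial growth, did not pass in either (0.01 ± 0.17 and 0.07 ± 0.17). *Tfap2a* and *Tfap2b* had reads in at most 2 of the 15 libraries each and passed the filter through libraries of other sutures.

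Part of the genes of fibrous tissue and of cartilage were higher in SM. Of 18 tendon and ligament genes, 10 and 8 were higher in SM and 3 and 2 higher in the OFs (medians 0.96 and 0.91). The OF counts lay near the shares of 14% and 7.80% over all genes. *Thbs2*, a matricellular thrombospondin, was at 2138 to 3062 CPM in SM against 727 to 1194 and 942 to 1289.9 CPM in the OFs (log2 fold change 1.55 ± 0.12, adjusted p = 1.66e-16 against the parietal OF and 1.28 ± 0.12, adjusted p = 9.20e-13 against the interparietal OF). Of 13 chondrocyte genes, 7 and 6 were higher in SM and none in an OF (medians 1.5 and 1.24). *Col2a1* read 201, 143, 103, 236 and 138 CPM in SM. Its levels were 17.1, 8.12, 11.9, 23.5 and 28 CPM in the parietal OF and 31.9, 36.2, 42.0, 58.6 and 107 CPM in the interparietal OF. *Col2a1*, the main cartilage collagen, did not overlap between SM and either OF except for the interparietal OF of embryo 5, which stood above the SM of embryo 3 (log2 fold change 3.32 ± 0.38, adjusted p = 3.64e-10 against the parietal OF and 1.68 ± 0.36, adjusted p = 4.63e-04 against the interparietal OF). *Acan*, the cartilage proteoglycan, read 100.5 to 169 CPM in SM against 35.5 to 57.8 and 32.0 to 48.0 CPM. *Sox9*, the factor that defines chondrocytes, did not pass (0.35 ± 0.40 and -0.08 ± 0.40), and *Matn3* and *Snorc* were too low to be tested. Of 15 contractile genes, 5 and 3 were higher in SM, where 10.1% and 4.19% of all genes tested were, and none in an OF (medians 0.76 and 0.62).

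The hedgehog pathway genes that were called divided by their role. Of 14 tested, 4 were higher in both OFs and 3 higher in SM in both comparisons (medians 0.01 and 0.01), and the rest passed in neither. The shares over all genes were 7.55% higher in both OFs and 3.87% higher in SM in both. *Shh* and *Dhh* were too low to be tested. The ligand gene and the targets were the 4. *Ihh* read 0.344, 2.80, 1.27, 0.745 and 0.400 CPM in SM. Its levels were 17, 25.1, 16.51, 21.1 and 14.7 CPM in the parietal OF and 9.06, 7.44, 11.6, 8.98 and 18.7 CPM in the interparietal OF. *Ihh* was at 2.80 CPM or less in SM and did not overlap with either OF (log2 fold change -4.23 ± 0.63, adjusted p = 2.13e-07 against the parietal OF and -3.51 ± 0.63, adjusted p = 2.32e-05 against the interparietal OF). *Ptch1* read 244, 362, 359.5, 227 and 136 CPM in SM. Its levels were 1024, 1106, 1047, 1373 and 755 CPM in the parietal OF and 941, 941, 928, 919.6 and 867 CPM in the interparietal OF. *Ptch1*, receptor and target in one, was lowest in the SM of embryo 5 (log2 fold change -2.04 ± 0.18, adjusted p = 3.96e-14 against the parietal OF and -1.86 ± 0.18, adjusted p = 4.06e-12 against the interparietal OF).

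*Hhip* read 31.4, 42.3, 48.9, 54.9 and 23.8 CPM in SM. Its levels were 131, 97.6, 104, 171 and 149 CPM in the parietal OF and 139, 127, 109, 150.2 and 121 CPM in the interparietal OF. *Hhip*, a membrane protein that binds and restrains the ligand and is itself a target, was higher in both OFs (log2 fold change -1.71 ± 0.37, adjusted p = 3.50e-04 against the parietal OF and -1.70 ± 0.37, adjusted p = 7.09e-04 against the interparietal OF). *Gli1*, the target most used to read pathway activity, was at 25.0 to 61.4 CPM in SM, 78.1 to 87.6 in the parietal and 91.9 to 112 in the interparietal OF (log2 fold change -0.90 ± 0.27, adjusted p = 0.0110 against the parietal OF and -1.19 ± 0.27, adjusted p = 0.00129 against the interparietal OF), and against the parietal OF it was not past the threshold without embryo 4 or 5 (adjusted p = 0.052 and 0.13). The coreceptors went the other way. *Cdon* read 371, 399, 373, 453 and 347 CPM in SM. Its levels were 90.5, 72.9, 85.4, 117 and 120.2 CPM in the parietal OF and 134, 147, 165, 186 and 174 CPM in the interparietal OF. Every SM library lay above every OF library for *Cdon* (log2 fold change 2.02 ± 0.17, adjusted p = 1.94e-15 against the parietal OF and 1.28 ± 0.16, adjusted p = 7.40e-09 against the interparietal OF), as for *Boc* (1.07 ± 0.18 and 1.10 ± 0.18). *Gas1* was also higher in SM (1.26 ± 0.21 and 0.77 ± 0.21), and against the interparietal OF it was not past the threshold without embryo 5 (adjusted p = 0.061). *Smo*, the signal transducer, and *Gli2*, *Gli3* and *Sufu* did not pass in either comparison.

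**Figure D3:**
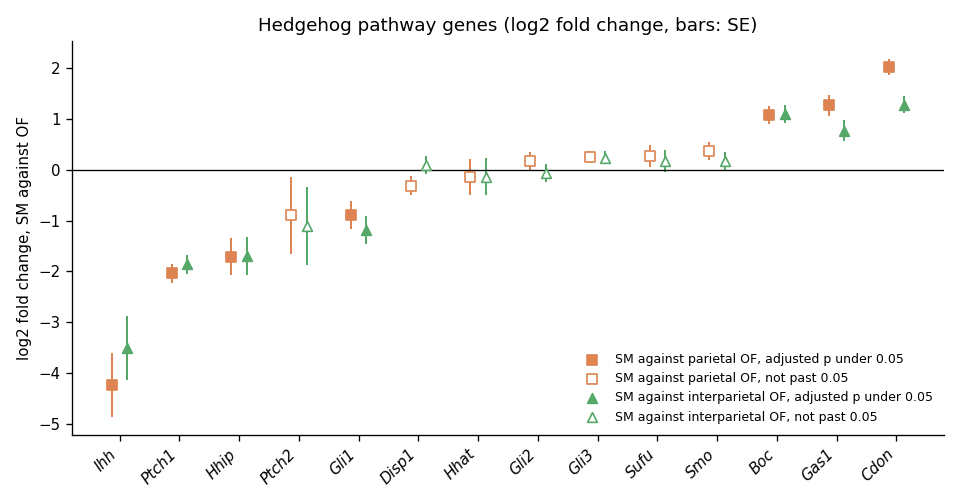
log2 fold change of SM against the parietal OF (squares) and against the interparietal OF (triangles) for 14 hedgehog pathway genes, with bars of 1 SE and filled marks where the adjusted p was under 0.05. The ligand *Ihh* and the targets *Ptch1*, *Hhip* and *Gli1* lie below 0, and the coreceptors *Boc*, *Gas1* and *Cdon* above it.

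Of 33 Wnt pathway genes, 9 were higher in SM than in the parietal OF and 3 than in the interparietal OF, and 8 were higher in each OF (medians 0.31 and 0.03). The shares over all genes were 10.1% and 4.19% higher in SM and 14% and 7.80% higher in the OFs. *Sfrp2* read 1471, 1658, 1689.5, 1841 and 1577 CPM in SM. Its levels were 133, 41.9, 103, 204 and 214 CPM in the parietal OF and 359.9, 363, 461, 564 and 431 CPM in the interparietal OF. *Sfrp2*, a secreted modulator of Wnt signals, separated all 3 regions without overlap (log2 fold change 3.70 ± 0.28, adjusted p = 2.29e-15 against the parietal OF and 1.95 ± 0.26, adjusted p = 7.27e-08 against the interparietal OF). *Tcf7*, a nuclear effector of Wnt signals, was at 13.5 to 71.9 CPM in SM, the highest in embryo 2, against 260.3 to 392 and 216 to 296 CPM in the OFs (log2 fold change -3.48 ± 0.44, adjusted p = 9.18e-09 against the parietal OF and -3.11 ± 0.43, adjusted p = 2.58e-07 against the interparietal OF). The inhibitors *Wif1* (-1.92 ± 0.21 and -1.69 ± 0.21) and *Dkk1* (above) were higher in the OFs and *Dkk3* in SM (1.17 ± 0.12 and 1.12 ± 0.12). Among ligands, *Wnt10b* was higher in the OFs (-2.53 ± 0.39 and -1.84 ± 0.38) and *Wnt11* in SM (2.83 ± 0.58 and 1.98 ± 0.55), the latter not past the threshold without embryo 5 (adjusted p = 0.056) against the interparietal OF. *Axin2*, a common target, did not pass in either (0.31 ± 0.25 and 0.09 ± 0.25).

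Of 34 BMP and TGF-beta genes, 11 and 7 were higher in SM and 5 and 4 higher in the OFs (medians 0.42 and 0.33). Over all genes, 10.1% and 4.19% were higher in SM and 14% and 7.80% higher in the OFs. The 5 of the parietal OF lay near its share. *Bmp2*, an osteogenic ligand, was at 7.30 to 14.5 CPM in SM against 42.2 to 72.1 and 35.0 to 49.5 CPM in the OFs (log2 fold change -2.27 ± 0.27, adjusted p = 5.13e-10 against the parietal OF and -1.95 ± 0.27, adjusted p = 8.46e-08 against the interparietal OF), and the pseudoreceptor *Bambi* at 4.40 to 10.1 against 55.4 to 89.1 and 33.8 to 49.6 CPM. Higher in SM were *Fstl1*, a secreted follistatin-like protein (1.41 ± 0.11 and 1.10 ± 0.11), and the receptor gene *Tgfbr2* (1.35 ± 0.14 and 1.16 ± 0.14). Of 20 FGF and ERK feedback genes, 5 and 3 were higher in SM and 3 and 2 higher in the OFs, the latter near the shares of 14% and 7.80% over all genes. The medians of -0.11 and -0.09 turned to 0.03 and 0.02 under median-ratio size factors and to 0.18 and 0.02 under total counts. The receptor genes *Fgfr3* (-1.48 ± 0.24 and -1.65 ± 0.24) and *Fgfr2* (-0.47 ± 0.13 and -0.55 ± 0.13) were higher in both OFs. *Fgfr2* was not past the threshold without embryo 1, 4 or 5 (adjusted p = 0.061, 0.065 and 0.12) against the parietal OF and not past the threshold without embryo 5 (adjusted p = 0.12) against the interparietal OF. Of 11 Notch genes, 3 and 2 were higher in SM, among them the ligand gene *Jag1* (1.18 ± 0.20 and 0.91 ± 0.20), and 3 and 2 higher in the OFs. The Notch medians of -0.27 and -0.52 became 0.02 and -0.41 under total counts.

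3 further lists cut across these groups. Over all genes, 10.1% and 4.19% were higher in SM and 14% and 7.80% higher in the parietal and interparietal OF. Of 29 genes whose mutation causes craniosynostosis in mice, 9 and 6 were higher in SM and 6 and 5 higher in the OFs (medians 0.31 and 0.20), with *Twist1*, *Msx2* and *Jag1* on the SM side and *Runx2*, *Ptch1* and *Alpl* on the OF side. Of 15 markers of suture or skeletal stem cells, 7 and 4 were higher in SM and 2 and 3 higher in the OFs (medians 0.33 and 0.17). The 2 of the parietal OF lay near the share over all genes. *Six2*, *Prrx1* and *Twist1* were higher in SM in both comparisons, and *Gli1* (above) and *Cd200* were higher in the OFs, the latter at 5.86 to 20.4 CPM in SM against 117 to 258 and 110 to 128 CPM (log2 fold change -4.33 ± 0.34, adjusted p = 3.64e-15 against the parietal OF and -3.77 ± 0.33, adjusted p = 1.08e-12 against the interparietal OF). Of 11 genes that the study named for the SM of the coronal suture, 7 and 5 were higher in SM, with *Erg*, *Angptl2*, *Adamts8*, *Cd34* and *Itgb5* higher in both comparisons (*Itgb5* not past the threshold without embryo 1, 2, 3 or 4 (adjusted p = 0.1, 0.23, 0.096 and 0.081) against the interparietal OF), and 1, *Hhip*, was higher in both OFs (medians 0.92 and 0.58). *Erg* was higher in SM in embryos 1 to 4 but not in embryo 5, the only animal of its litter, where the log2 ratio was -0.091 and -0.316 against lows of 1.39 and 1.24 in the others. *Adamts8* was at -0.062 against the parietal OF in embryo 5 and *Itgb5* at -0.082 against the interparietal OF, where embryos 1 to 4 were all above 0. The study described these genes in single cells of the coronal suture and followed such genes in libraries that include these. From those libraries it reported *Erg*, *Angptl2*, *Adamts8*, *Cd34*, *Itgb5* and *Ets2* as enriched in SM of every calvarial suture. *Ets2* is not among the 5 genes named above as higher in both comparisons, and its values are not given here. It reported *Hhip* as enriched in the OFs of the sutures other than the coronal. The counts above are therefore not independent of what the study reported.

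Some genes of bone and of the matrix and secretory lists were called between the OFs. Of 20 genes of collagen modification and secretion, 3 were higher in the parietal OF and none in the interparietal OF. So were 3 of 18 genes of folding and the unfolded protein response. Of 20 small leucine-rich and elastic fibre matrix genes, 4 were higher in the interparietal OF, where 0.491% of all genes tested were, and 1 in the parietal OF. Of 26 bone matrix genes, 6 were higher in the parietal OF, where 0.551% of all genes tested were, and none in the interparietal OF (*Col1a1*, *Col1a2*, *Sparc*, *Spp1*, *Enpp1* and *Col24a1*), and of 12 osteoblast transcription factors, 1, *Zfp521*, was called, higher in the interparietal OF. Without embryo 2, *Enpp1* was the 1 of the 6 still called. Of the others, *Col24a1* lost the call in 4 of 5 fits without 1 embryo, *Col1a1* and *Spp1* in 3, *Sparc* in 2 and *Col1a2* in 1. *Col1a1* read 36287 CPM in the parietal OF of embryo 2 against 13088 to 25021 in the other 4, and it was not past the threshold without embryo 1, 2 or 3 (adjusted p = 0.076, 0.47 and 0.23). *Spp1* read 5.68, 6.19, 6.35, 6.70 and 1.70 CPM in SM. Its levels were 149, 77.9, 117, 18 and 9.71 CPM in the parietal OF and 10.8, 3.67, 13.3, 5.99 and 5.04 CPM in the interparietal OF. *Spp1*, osteopontin, was highest in the parietal OF of embryos 1 to 3, while its levels in the parietal OF of embryo 5 and in the interparietal OFs overlapped (log2 fold change 2.90 ± 0.62, adjusted p = 0.00860), and the difference between the OFs was not past the threshold without embryo 1, 2 or 3 (adjusted p = 0.081, 0.15 and 0.086).

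By the rule, the genes named for the parietal comparison alone that also differed between the OFs were *Spp1*, *Sptb*, *Enpp1*, *Chrdl1* and *Slc25a37*, all higher in the parietal OF, and *Adgrb3*, *Car10*, *Nlgn1*, *Dgkk* and *Frem1*, all lower there. *Enpp1* read 3.96, 6.19, 8.07, 6.52 and 4.90 CPM in SM. Its levels were 19.5, 13.9, 19.2, 15.4 and 13.1 CPM in the parietal OF and 3.32, 2.41, 7.21, 4.23 and 6.52 CPM in the interparietal OF. *Enpp1* makes pyrophosphate, the inhibitor of mineral growth. Each parietal OF library exceeded all others, SM and interparietal OF overlapped (log2 fold change 1.81 ± 0.28, adjusted p = 6.38e-05 between the OFs), and the difference held in each of the 5 fits that left out 1 embryo. *Nlgn1* read 10.5, 10.4, 12.1, 9.59 and 8.0 CPM in SM. Its levels were 1.15, 0.119, 0.820, 1.52 and 1.26 CPM in the parietal OF and 8.44, 5.24, 8.91, 10.1 and 7.65 CPM in the interparietal OF. *Nlgn1*, a synaptic adhesion gene, was near SM levels in the interparietal OF and far lower in the parietal OF (log2 fold change -3.07 ± 0.57, adjusted p = 8.75e-04), also in each of those fits.

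*Sptb*, an erythrocyte spectrin, and *Slc25a37*, the mitochondrial iron importer of erythroid cells, are genes of red cells. The summed level of 7 erythroid genes, which count near-identical globin copies, was 937 to 3151 CPM in SM, 971 to 4809 CPM in the interparietal OF and 915 to 19104 CPM in the parietal OF, the highest in embryo 2. 4 of these 7 were higher in the parietal OF than in SM and none was called between SM and the interparietal OF. *Slc25a37* was at 89.6 to 228 CPM in SM, 99.0 to 987 in the parietal and 95.9 to 347 in the interparietal OF, and the difference between the OFs was not past the threshold without embryo 1, 2 or 3 (adjusted p = 0.23, 0.47 and 0.22). The part of red cells in these results was not tested. *Car10*, *Dgkk* and *Adgrb3* lost the difference between the OFs in at least 4 of the 5 fits, and *Frem1*, *Chrdl1* and *Sptb* in 2 or 3 of them.

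For the interparietal comparison alone, the rule named *Tbx2*, *Rgs5*, *Thbd* and *Cplx2*, higher in the interparietal OF, and *Actg2*, *Postn*, *Tanc2* and *Lum*, lower there. *Postn* read 378, 332, 309, 520.2 and 513 CPM in SM. Its levels were 421, 419.8, 427, 423 and 369.5 CPM in the parietal OF and 223, 207, 209.5, 285 and 241 CPM in the interparietal OF. *Postn*, periostin, a matrix protein of periosteum and ligament, overlapped between SM and parietal OF and was lower in all 5 interparietal OF libraries (log2 fold change 0.84 ± 0.15, adjusted p = 7.63e-04 between the OFs), and of these 8 genes it was the 1 whose difference between the OFs held in every fit without 1 embryo. The calls of *Actg2*, *Lum*, *Rgs5* and *Cplx2* against SM were each lost in 1 to 3 of those fits. *Tbx2*, a T-box repressor, was at 9.39 to 13.9 CPM in the interparietal OF against 1.89 to 5.95 in the parietal OF and 0.635 to 3.53 in SM, with no overlap of the interparietal OF with the others, yet the difference between the OFs was not past the threshold without embryo 1, 2, 3, 4 or 5 (adjusted p = 0.17, 0.27, 0.059, 0.12 and 0.24).

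A few genes called against both OFs, or against the parietal OF alone, kept their difference between the OFs in all 5 of those fits and were singled out for it after their values were seen. *Bmp5* read 7.40, 6.48, 4.90, 9.03 and 6.20 CPM in SM. Its levels were 0.382, 0, 0.103, 0.447 and 0.989 CPM in the parietal OF and 4.85, 3.88, 5.40, 5.90 and 4.78 CPM in the interparietal OF. *Bmp5*, a BMP ligand of skeletal condensations, was almost absent from the parietal OF and close to SM levels in the interparietal OF (log2 fold change -3.75 ± 0.56, adjusted p = 2.63e-05). *P4ha1*, a prolyl hydroxylase of collagen, was at 114 to 145 CPM in SM, 327 to 426 in the interparietal OF and 439.8 to 896 in the parietal OF, without overlap of the 3 ranges (log2 fold change 0.86 ± 0.15, adjusted p = 3.85e-04 between the OFs). *Zfp521* stood in the reverse order, at 443 to 698, 265 to 360.3 and 129 to 249 CPM (log2 fold change -0.71 ± 0.12, adjusted p = 2.42e-04), and so did *Sfrp2* (log2 fold change -1.74 ± 0.26, adjusted p = 4.37e-05).

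**Figure D4:**
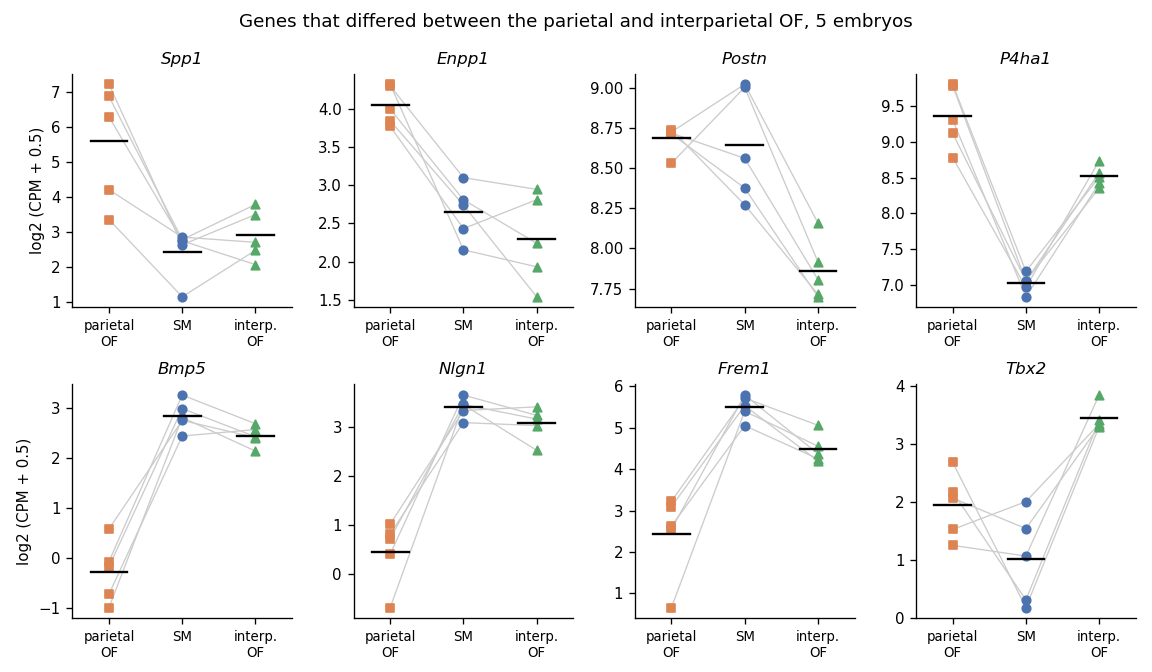
log2 of CPM plus 0.5 of 8 genes in the parietal OF, SM and interparietal OF, with a line joining the libraries of each of 5 embryos and a bar at the group mean. *Enpp1* and *P4ha1* are highest in the parietal OF, *Bmp5*, *Nlgn1* and *Frem1* lowest there, *Postn* is lowest and *Tbx2* highest in the interparietal OF, and *Spp1* spreads widely in the parietal OF.

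The difference of SM from the OFs was next set against the same difference in the coronal, frontal and sagittal sutures at E16.5 (35 libraries) by a test of the difference between differences. No embryo or litter of the lambdoid libraries is shared with these sutures, so that suture cannot be told apart from litter. In coronal libraries at E16.5, mitochondrial genes held 25.7 to 52.4% of counts, against 12.8 to 16.9% in the lambdoid libraries. Genes detected were 17274 to 22824 there and 21967 to 25302 here. The part of library quality in the differences between sutures was not tested. The lambdoid values below are given beside those of other sutures with this limit. It was higher in the lambdoid suture for 69 genes (0.349%) and lower for 62 (0.314%), or for 91 and 45 when scaled by total counts. With the coronal suture left out of the reference, 68 were higher, 27 of them among the 69, and 61 were lower, 44 of them among the 62. With limma-voom 80 genes were higher and 28 lower. Without 1 embryo the count of lower genes ran from 34 to 47 and was 34 without embryo 1, 3 or 5 and 39 without embryo 2. Of 20 genes of small leucine-rich and elastic fibre matrix, 5 were higher in the lambdoid contrast and none was lower. Of 12 endothelial genes, 9 were lower in the lambdoid contrast and none was higher. Within the lambdoid suture, 10 of the 12 were lower in SM than in each OF (medians -1.41 and -1.54), and 1, the receptor gene *Tek*, was higher in SM than in the parietal OF (log2 fold change 1.09 ± 0.39, adjusted p = 0.0310), a call not past the threshold without embryo 2, 3 or 5 (adjusted p = 0.07, 0.053 and 0.17). *Kdr* read 6.36, 12.8, 8.71, 18.1 and 4.40 CPM in SM. Its levels were 24.2, 38.7, 34.2, 32.6 and 25.1 CPM in the parietal OF and 30.0, 30.9, 29.9, 53.8 and 32.5 CPM in the interparietal OF. *Kdr*, the main VEGF receptor, was lowest in SM in every embryo (log2 fold change -1.73 ± 0.27, adjusted p = 8.49e-07 against the parietal OF and -1.91 ± 0.28, adjusted p = 2.25e-07 against the interparietal OF). In the other sutures it was at 29.4 to 93.1 CPM in coronal, 37.6 to 85.6 in frontal and 10.9 to 23.2 in sagittal SM, and the lambdoid contrast was lower (log2 difference -2.47 ± 0.29, adjusted p = 2.97e-08), in each fit without 1 embryo too.

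The apelin receptor gene *Aplnr*, another gene of endothelium, read 1.89, 6.77, 4.26, 5.77 and 2.5 CPM in lambdoid SM against 16.45 to 46.9 and 18 to 46.8 CPM in its OFs (difference from the other sutures -3.23 ± 0.40, adjusted p = 1.28e-07). The summed endothelial level was 88.1 to 161 CPM in lambdoid SM, with all 12 genes above 0, and 178 to 269 and 195 to 387 CPM in the parietal and interparietal OF. At the same age it was 243 to 643 CPM in coronal and 326 to 790 CPM in frontal SM, whereas sagittal SM, at 88.4 to 160 CPM, overlapped with lambdoid SM and its OF was lower still, at 52.7 to 119 CPM. At E18.5 lambdoid SM stood at 160 to 312 CPM, overlapping with its OFs (225 to 281 and 148 to 249 CPM). Of 7 pericyte genes, 2 were lower in SM than in both OFs and 3 were higher in SM than in the parietal OF. The shares over all genes were 7.55% and 10.1%. *Rgs5*, a pericyte gene, was lower in SM than in the interparietal OF (log2 fold change -1.74 ± 0.52, adjusted p = 0.0166), a call not past the threshold without embryo 2, 3 or 4 (adjusted p = 0.069, 0.11 and 0.14), and lower in the lambdoid contrast than in other sutures (-2.87 ± 0.57, adjusted p = 0.00253).

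**Figure D5:**
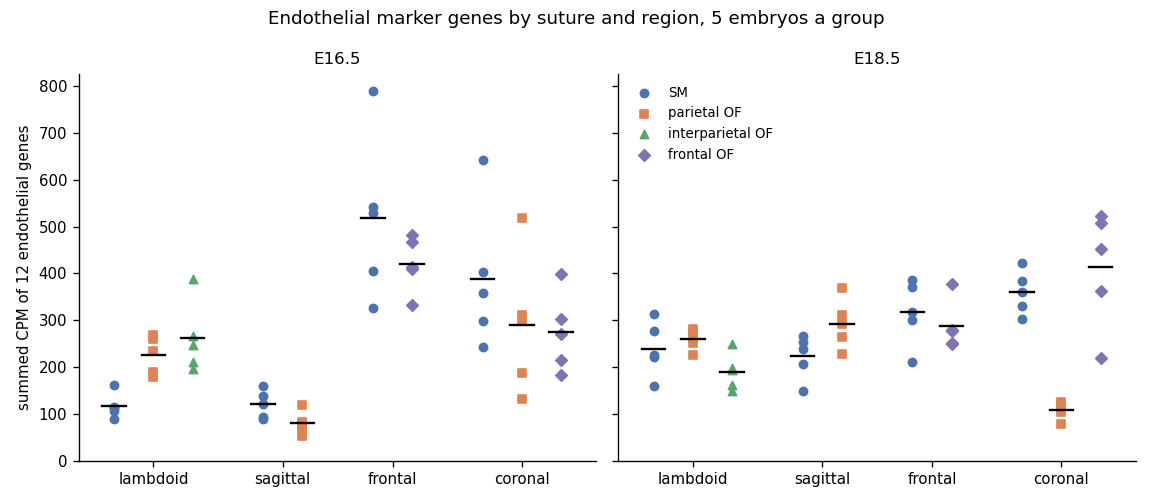
Summed CPM of 12 endothelial genes in each library, by suture, region and stage, 5 libraries a group. Lambdoid SM at E16.5 lies at 88.1 to 161 CPM, below its OFs, below coronal and frontal SM of the same stage, and level with sagittal SM.

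The genes named for a higher lambdoid contrast were *Mfap5*, *Ttn*, *Tnfrsf11b*, *Aldh1a3* and *Ptgs1*. For each of these 5 genes, the highest SM value was that of embryo 5 and the lowest that of embryo 4. *Ttn*, the giant protein of muscle sarcomeres, read 56.2, 23.4, 59.9, 11.5 and 476 CPM in SM, and its difference was not past the threshold without embryo 5 (adjusted p = 0.061). The muscle marker sum was also highest in that library (454 CPM), and its part in this result was not tested. *Tnfrsf11b* read 12, 5.90, 6.53, 3.26 and 15.9 CPM in SM. Its levels were 8.88, 7.76, 8.82, 7.14 and 7.91 CPM in the parietal OF and 7.45, 13.1, 9.10, 4.40 and 6.60 CPM in the interparietal OF. *Tnfrsf11b* encodes osteoprotegerin, the decoy receptor that restrains osteoclasts. It did not differ in call between SM and either OF here. Its SM stood at 0 to 0.0831, 2.20 to 7.32 and 0.377 to 1.16 CPM in the coronal, frontal and sagittal sutures. The coronal values lay at the floor, and the frontal range overlapped with that of lambdoid SM. OF levels of the other sutures are not given here. The lambdoid contrast, which weighs SM against the OFs of each suture rather than SM levels, was higher (2.93 ± 0.51, adjusted p = 2.19e-04). The call held in each fit without 1 embryo, but with the coronal suture left out of the reference the difference was 0.68 ± 0.52 and no longer passed. *Mfap5*, a microfibril protein, *Aldh1a3*, which makes retinoic acid, and *Ptgs1*, a prostaglandin synthase, each lost the difference in 2 to 4 of the 5 fits. These 3 also lost it with the coronal suture left out, as did *Mmp13*. Named for a lower contrast beside *Aplnr*, *Kdr* and *Rgs5* were *Mmp13*, the collagenase of mineralizing bone, and *Celsr1*, a planar polarity cadherin, both of which lost the difference in at least 3 of the 5 fits. Of the other genes of the text called here, *Cxcl12* lost the difference in 5 of the 5 fits, *Parvb* in 4, *Wnt10b*, *Cdkn1a* and *Postn* in 3 each and *Tppp3* in 2, while *Inpp4b*, *Adgrf5* and *Fabp4* kept it in each.

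Between E16.5 and E18.5 of the lambdoid suture, whose embryos differ, the difference of SM from the OFs was higher at E16.5 for 37 genes (0.187%) and lower for 13 (0.0658%), or for 56 and 10 when scaled by total counts. With limma-voom the counts were 4 and 5, and with no replicate block 17 and 8. Without embryo 5 the counts were 23 and 8, and without embryo 3 they were 30 and 8. *Cdkn1a*, the cell cycle inhibitor p21, read 27.9, 32.5, 27.0, 19.9 and 32.7 CPM in E16.5 SM against 119.8 to 289.9 and 101 to 135 CPM in the OFs. At E18.5 it was at 4.53 to 10.7 CPM in SM and 183 to 242 and 137 to 232 CPM in the OFs, so that the gap was wider at E18.5 (difference 2.20 ± 0.35, adjusted p = 3.73e-04). *Tppp3*, a tubulin-binding protein of tendon sheath and other fibrous cells, was at 5.49 to 42.5 CPM in E16.5 SM, the highest in embryo 5. In E18.5 SM it was at 5.45 to 12.4 CPM, which overlaps. Its log2 ratio of SM to the parietal OF at E16.5 was -1.31 to 0.189 in embryos 1 to 4 and 1.74 in embryo 5. To the interparietal OF it was -0.446 to 1.095 and 1.32. The contrast of SM less OFs was higher at E16.5 (difference 2.73 ± 0.48, adjusted p = 0.00121), which does not show a fall of *Tppp3* in SM. These stage differences of *Cdkn1a* and *Tppp3* held in each fit without 1 embryo, as did those of *Aplnr* and *Kdr*, whose contrast was lower at E16.5 (-2.67 ± 0.44 and -1.95 ± 0.33). The other genes named for stage, *Bmp3*, *Gramd2* and *Slc16a4* with a higher contrast and *Cxcl12*, *Parvb* and *Adgrf5* with a lower one, each lost the call in 1 to 4 of the 5 fits.

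Markers of further cell types were called as follows, where over all genes 10.1% and 4.19% were higher in SM and 14% and 7.80% higher in the parietal and interparietal OF. The counts of the macrophage, osteoclast and dura mater lists lay near these shares. Of 6 mast cell genes tested, 5 were higher in SM than in the parietal OF and none passed against the interparietal OF, with sums of 296 to 495 CPM in SM, 31.1 to 176 CPM in the parietal and 91.9 to 214 CPM in the interparietal OF. Of 9 genes of hypodermis and dermis, 7 and 3 were higher in SM, with sums of 1838 to 2361 CPM in SM, the highest in embryo 5, 94.2 to 316 CPM in the parietal and 447 to 672 CPM in the interparietal OF. The 3 ranges did not overlap, and *Sfrp2* (above) made the larger share of the SM sums. The keratin genes *Krt14*, *Krt5* and *Krt15* of epidermis were too low to be tested. Of 12 macrophage genes, 1 was higher in SM in each comparison, with sums of 166 to 347 CPM in SM, 124 to 215 CPM in the parietal and 106 to 177 CPM in the interparietal OF. Of 8 osteoclast genes, *Nfatc1* was higher in SM in both comparisons, and 1 gene was higher in each OF, *Tnfrsf11a* in the parietal and *Mmp9* in the interparietal, the latter not past the threshold without embryo 2, 3, 4 or 5 (adjusted p = 0.074, 0.15, 0.21 and 0.12). Of 12 genes of dura mater and meninges, 1 was higher in SM and 2 higher in the parietal OF, and 1 was higher in the interparietal OF, namely *Cxcl12*, whose call there was lost in each of the 5 fits without 1 embryo. Of 4 adipocyte genes tested, 1 was higher in SM than in the parietal OF and 2 were higher in the parietal OF, of which *Fabp4*, also expressed by endothelium, was higher in both OFs. The part of these cell types in the other results was not tested.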

How the data were processed

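Suture mesenchyme and osteogenic fronts were captured by laser microdissection from cryosections. Per the labels, the RNA was amplified (Ovation) and made into Nextera XT libraries. The authors trimmed reads with cutadapt, aligned them to mm10 with STAR 2.5.3a and counted them per gene with featureCounts 1.6.4 on GENCODE vM22, without strand, so that reads of overlapping and antisense genes cannot be told apart. The deposited values are raw counts per gene, one file per library. A deposited table of the authors' own log2 ratios was not used. Of 55487 gene identifiers, 55394 were paired with symbols from GENCODE vM21. The 18 libraries of a second coronal series, 16 of complete sutures and 4 of single cells were not analysed here.

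Counts were fitted with edgeR 4.0.16 (R 4.3.3) by the quasi-likelihood test with robust priors, in 1 model of 100 libraries (20 groups of 5) with 40 embryos as a block and TMM scaling. Genes at 1 CPM or more in over 10% of libraries were kept (19768). Contrasts were SM against each OF, the OFs against each other, and the difference of SM from the mean OF against the same in the 3 other sutures at E16.5 or in the lambdoid suture at E18.5. p-values were adjusted by Benjamini-Hochberg over all genes, with a threshold of 0.05. Replicate numbers name embryos in the labels. Same-numbered libraries deviated from their group means together, with a median correlation of 0.102 (-0.0004 to 0.315, 15 pairs) against -0.0388 for 60 other pairs. Replicates are separate embryos, and 4 of the 5 are littermates.

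Named genes had a mean of at least 5 CPM over the 15 libraries. They were the 12 per direction called in both comparisons with the widest lesser fold change, and up to 5 per direction called in 1 comparison and between the OFs, each with the same direction in every embryo, and the 5 widest per direction for sutures and for stages. Symbols of unnamed gene models were left out. Genes of the lists are named as examples. The 32 gene lists and the members were chosen with earlier results of these data known. Tested on simulated counts with 200 changed genes, the fit recovered 89 of 100 genes changed by 2 on the log2 scale and 52 of 100 changed by 1 against the parietal OF, and 87 and 47 against the interparietal OF. Alternatives were other scalings (median-ratio, total counts), filters (filterByExpr, none), no robust prior, no block, limma-voom (limma 3.58.1), the 15 libraries alone with edgeR and DESeq2 1.42.0, each embryo left out, the coronal suture left out, and the library that stood apart left out. The 15 libraries held 8098490 to 11294521 counts and the 100 libraries 7305627 to 34518477.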

Additional observations from a re-analysis of the deposited data

Results flagged for a closer look

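The difference of SM from an OF differed between the OFs, as tested by the parietal OF against the interparietal OF, for these genes named in the text, with the log2 difference of the OFs in parentheses. Higher in the parietal OF were *Spp1* (2.90), *Sptb* (1.91), *Enpp1* (1.81), *Actg2* (1.6), *Slc25a37* (1.23), *Chrdl1* (1.13), *P4ha1* (0.86), *Postn* (0.84), *Col24a1* (0.74), *Col1a2* (0.71), *Col1a1* (0.63), *Sparc* (0.62), *Lum* (0.53) and *Tanc2* (0.42). Higher in the interparietal OF were *Bmp5* (-3.75), *Dgkk* (-3.71), *Car10* (-3.33), *Myh8* (-3.28), *Nlgn1* (-3.07), *Adgrb3* (-2.52), *Frem1* (-2.01), *Rgs5* (-1.95), *Ndst3* (-1.76), *Sfrp2* (-1.74), *Col2a1* (-1.64), *Tbx2* (-1.55), *Fbn2* (-1.17), *Eln* (-0.95), *Thbd* (-0.93), *Cplx2* (-0.74), *Cdon* (-0.74) and *Zfp521* (-0.71). *Nlgn1*, *Postn*, *Enpp1*, *Zfp521*, *P4ha1*, *Sfrp2* and *Bmp5* held in each fit that left out 1 embryo.

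The difference of SM from the mean of the OFs differed between the lambdoid suture and the mean of the coronal, frontal and sagittal sutures at E16.5, on the log2 scale, in the higher direction for *Mfap5* (3.0), *Ttn* (2.99), *Tnfrsf11b* (2.93), *Aldh1a3* (2.37), *Ptgs1* (2.20), *Tppp3* (1.70), *Wnt10b* (1.54), *Inpp4b* (1.16) and *Cdkn1a* (1.11), and in the lower direction for *Mmp13* (-3.23), *Aplnr* (-3.23), *Rgs5* (-2.87), *Celsr1* (-2.77), *Kdr* (-2.47), *Adgrf5* (-1.92), *Fabp4* (-1.75), *Cxcl12* (-1.74), *Parvb* (-1.4) and *Postn* (-0.70). Of these, *Inpp4b*, *Tnfrsf11b*, *Rgs5*, *Aplnr*, *Kdr*, *Adgrf5* and *Fabp4* held in each fit that left out 1 embryo. With the coronal suture left out of the reference, 10 of these differences between sutures no longer passed, *Tnfrsf11b*, *Mfap5*, *Aldh1a3*, *Ptgs1* and *Mmp13* among them. Between stages of the lambdoid suture the difference of SM from the OFs was higher at E16.5 for *Tppp3* (2.73), *Cdkn1a* (2.20), *Bmp3* (2.10), *Gramd2* (1.75) and *Slc16a4* (1.58), and lower for *Aplnr* (-2.67), *Cxcl12* (-2.30), *Kdr* (-1.95), *Parvb* (-1.87) and *Adgrf5* (-1.54).

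Single libraries stood apart from the other 4 of their group for several named genes, as chance alone would give for about 1 in 20 groups of 5. That rate does not apply where the other 4 libraries read 0, since any read is then set apart, as for *Mepe*, *Chst13*, *Tfap2a* and *Tfap2b*. Embryo 1 read *Mepe* at 0.0860 against 0 CPM in the other libraries of SM. Embryo 2 read *Cd200* at 20.4 against 5.86 to 7.44, *Chst13* at 0.677 against 0 and *Col22a1* at 10.8 against 0.50 to 1.36 CPM in the other libraries of SM. Embryo 4 read *Tfap2b* at 1.49 against 0 CPM in the other libraries of SM. Embryo 5 read *Adamts8* at 1.70 against 4.47 to 4.90, *Dcn* at 969.8 against 424 to 499, *Gli3* at 96.0 against 124 to 132, *Itgb5* at 109.6 against 139.9 to 146, *Mki67* at 410 against 587 to 630.4 and *Spp1* at 1.70 against 5.68 to 6.70 CPM in the other libraries of SM. Embryo 2 read *Cdh12* at 0 against 1.05 to 1.64, *Frem1* at 1.07 against 5.33 to 8.84, *Gas1* at 8.96 against 18.1 to 19.1, *Parvb* at 23.6 against 7.14 to 8.41 and *Tfap2a* at 0.119 against 0 CPM in the other libraries of the parietal OF. Embryo 4 read *Tfap2b* at 0.0893 against 0 CPM in the other libraries of the parietal OF. Embryo 5 read *Gli3* at 93.7 against 103 to 106, *Postn* at 369.5 against 419.8 to 427, *Tcf7* at 260.3 against 349 to 392 and *Tnfrsf11a* at 9.80 against 16.7 to 19.3 CPM in the other libraries of the parietal OF. Embryo 1 read *Jag1* at 40.3 against 44.1 to 45.8 CPM in the other libraries of the interparietal OF. Embryo 2 read *Omd* at 29.5 against 22.7 to 24 CPM in the other libraries of the interparietal OF. Embryo 4 read *Col24a1* at 465 against 592 to 653 and *Kdr* at 53.8 against 29.9 to 32.5 CPM in the other libraries of the interparietal OF. Embryo 5 read *Alx4* at 122 against 95.6 to 100.2, *Axin2* at 62.7 against 28.3 to 30.9, *Ptch1* at 867 against 919.6 to 941 and *Tbx2* at 13.9 against 9.39 to 10.1 CPM in the other libraries of the interparietal OF.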

How the results depend on the processing

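Of the 16 alternatives, 1 was added after the data were seen, and no called difference of a named gene changed sign under any of them. Medians of the FGF and ERK feedback, Notch, adipocyte and neural lists did so under another scaling in at least 1 comparison. Calls of SM against an OF for named genes stayed on their side of the threshold for 257 to 276 of the genes and comparisons fitted in each alternative. Differences between OFs, sutures or stages held less well. Of 61 called, 34 were lost without embryo 2 and 34 without embryo 3, 27 without embryo 1, 22 without embryo 5, 32 with limma-voom, 28 without the parietal OF of embryo 2 and 17 with no replicate block. The 15-library fits called more genes and scaling by total counts shifted the directions. Total counts alone gave 3051 genes higher in SM and 1306 higher in the parietal OF, 944 higher in the interparietal OF, 850 higher in both OFs, 30 and 163 between the OFs (parietal, then interparietal) and 56 for a higher contrast at E16.5 than at E18.5. The 15 libraries alone, with the embryo block, gave 4093 and 4106 against the parietal OF and 2528 and 2885 against the interparietal OF, 2224 and 2669 in both, and 527 and 708 between the OFs. DESeq2 on the same libraries gave 4495 and 4086, 2982 and 2778, 2581 and 2564, and 750 and 898. Without the low-count filter, 42509 genes were tested, and 197 and 243 differed between the OFs, 197 and 112 between sutures and 148 and 57 between stages. The limma-voom fit gave 41 and 84 between the OFs, 80 and 28 between sutures, and 4 and 5 between stages.

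Pairing by embryo, the replicate block, is part of the main model. Without the block the counts were 49 and 51 between the OFs and 17 and 8 between stages. In the other comparisons they stayed within 1.5 times, at 1911 and 2643 against the parietal and 770 and 1441 against the interparietal OF. Without the parietal OF of embryo 2, a fit added after the data were seen, the counts were 1506 and 2298 against the parietal and 823 and 1525 against the interparietal OF, 734 and 1435 in both, 21 and 16 between the OFs, 54 and 48 between sutures and 31 and 13 between stages.

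With each embryo left out in turn, the counts ran from 1422 to 1838 and 1872 to 2276 against the parietal OF, from 626 to 731 and 951 to 1188 against the interparietal OF, and from 575 to 669 and 906 to 1148 in both. They ran from 18 to 121 and 14 to 103 between the OFs, from 46 to 81 and 34 to 47 between sutures, and from 23 to 43 and 8 to 12 between stages. Genes higher in the interparietal OF fell to 951, 982 and 1005 without embryo 1, 3 or 5. Between the OFs, embryo 1 gave 40 and 49, embryo 2 gave 18 and 14, embryo 3 gave 20 and 23 and embryo 4 gave 58 and 39 when left out. Why these counts moved was not tested. With the coronal suture left out of the reference, 10 of 19 named differences between sutures no longer passed.

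Depth limits the lowest genes, since in libraries of 8098490 to 11294521 counts a value of 0 covers levels below a few reads.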
